A study of Anser sp. with 4 samples.

Results

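The 4 stages of the study were each read by a single one-colour Cy3 array. Total RNA came from the ventral skin of female geese before molt (called pre-molt) and 1.5, 5 and 10 days after it (called day 1.5, day 5 and day 10). The title names the Wanxi-White goose, and the labels name 6 birds penned apart for the work, without saying whether their RNA was pooled or how old they were at sampling. All groups share sex, diet, housing and body site, and no drug or genetic change is named for any of them. The transcripts described here are those with their lowest signal on day 5, by a milder margin than the deepest ones. A transcript identifier was a member when its level, which is its log2 signal minus the 75th percentile of the array, lay at least 1.0 lower on day 5 than at the lowest of the other 3 times. Identifiers that were 4.0 or more above their level on day 5 both pre-molt and on day 10 were left out. This gave 283 members of 20408 identifiers with a detected probe (well above background on any array), or 1.39%, and 49 identifiers were left out as deep. The array names 31550 identifiers in all.

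Feathers are shed at the molt and regrow from follicles that stay in the skin. In a growing follicle, epithelial cells at the base divide around a dermal papilla, move upward, and fill with alpha-keratins and then with the corneous beta-proteins (feather beta-keratins) before they die. Skin also holds interfollicular epidermis, dermis, fat, smooth feather muscles, vessels, nerves and blood. The arrays carry probes for chicken transcripts, and the files pair none of the identifiers with a gene symbol. The members are therefore described by level, course, probe and position, and markers of cell types were not read. In bulk skin, fewer cells of a type and less RNA per cell cannot be told apart.

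The values of all 4 arrays chose the members, so the trough itself is a description and not a result. The depth of a member, which is the lowest of its other 3 levels minus its level on day 5, had a median of 1.35 on the log2 scale (2.54-fold) and quartiles of 1.15 and 1.71. It ran up to 3.22. In 176 members it was under 1.5 and in 40 it was 2 or more. The 3 members just inside the limit of 1.0 had depths of 1.0007, 1.0020 and 1.0025, and the 3 identifiers just outside it 0.9956, 0.9939 and 0.9864. At the limit of 4.0, the smaller of the rises to pre-molt and to day 10 was 3.92, 3.89 and 3.86 for the members nearest to it, and 4.11, 4.28 and 4.29 for the nearest of the identifiers left out. With 1 array per time no value has a replicate error and no test was made between times.

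Where the spots of the members lay on the slide has to be given before their levels. The array has 532 rows and 85 columns, and 152 of the 315 member spots (48.3%) lay at row 267 or beyond within the first 21 columns, a corner that held 12.4% of all detected spots. In the map of the day 5 array they form a band along the left edge and an arc above it. To measure this without the members, each spot was given the median deviation of its 30 nearest dim detected spots that belong to no member. The deviation of a spot is its level on one array minus the median of its levels on the other 3, and dim means a mean level below 0 over the times other than day 5. A neighbourhood was called low at a median of -0.3 or under. On the day 5 array, low neighbourhoods held 153 member spots (48.6%) and 12.9% of all detected spots. On the other arrays the member spots were not over-represented in neighbourhoods defined in the same way, with 8.57% of member spots and 16.8% of detected spots pre-molt, 16.5% and 21.8% on day 1.5, and 7.62% and 18.1% on day 10. These shares are not independent of the choice of members. The rule asks for a low level on day 5 and higher levels at the other times, so a spot lowered at another time was less likely to be chosen. The 49 deep identifiers had 53 spots, of which 10 (18.9%) lay in low neighbourhoods of the day 5 array.

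**Figure D1:**
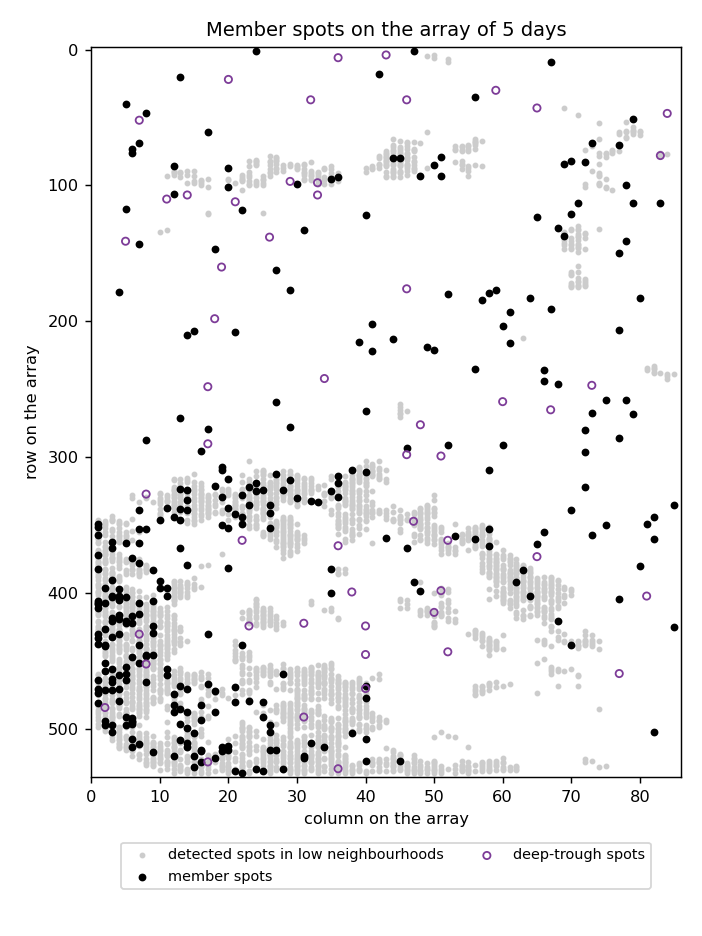
Position of spots on the day 5 array, as column (x axis) and row (y axis, row 1 at the top). Black points are the 315 member spots, open purple circles the 53 spots of the deep-trough identifiers, and grey points detected spots in low neighbourhoods; 153 member spots lie on grey ground.

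Members were split by position for the main results that follow. At least 1 spot in a low neighbourhood (inside) was found for 150 members, and every spot outside for 133. Of 3364 identifiers inside, 4.46% were members, against 0.780% of 17044 identifiers outside. The share was higher inside at every level, by the smallest factor among bright spots. For single spots with a mean level between -2 and 0, 10.8% of those inside and 1.49% of those outside were lowest on day 5 by 2-fold or more. Between 0 and 3 the shares were 5.88% inside and 1.06% outside, and from 3 upward 3.53% inside and 1.58% outside.

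Other measurements at the same positions did not move alike. Spots below -2 stood at a median deviation of -0.60 inside and 0.04 outside on the day 5 array, whereas spots from 3 upward stood at -0.08 inside and -0.00 outside. The neighbourhoods were chosen on dim spots, so the first of these values follows in part from that choice. The 28 spike-in spots that lay inside, of 192 spots of 6 mid-range spike-in probes, differed from the spots of the same probes outside by a mean of 0.01 on the log2 scale on day 5, where the SD of such spots about their probe was 0.07. Spike-in RNA is added to the sample in known amounts and is read by matching probes. The level of the spike-in spots is not given here, so their difference cannot be carried over to dim member spots. Local background on day 5 had a median of 43.5 at detected spots inside and 44 at those outside, and of 43 and 44 at member spots (pixel intensity). The scanner program flagged 1 member spot as an outlier on any array. For 1277 identifiers that are not members and had probes both inside and outside, the probes inside deviated on day 5 by a median of -0.07 more than those outside, with quartiles of -0.41 and 0.17. On the arrays of the other times the same difference was 0.04 pre-molt, -0.01 on day 1.5 and 0.07 on day 10. Deviations at those times are taken against a median that includes day 5, so a lower level on day 5 can raise them. Dim probes of these identifiers could be among the spots that defined the neighbourhoods, though no spot counted for itself. For a member read by 1 probe on 1 array per time, the position of its spot and the time of the sample cannot be told apart.

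The levels of the members were moderate and fell close to background on day 5. In pre-molt skin the median level was -0.06 (quartiles -1.30 and 1.46), on day 1.5 -1.33 (-2.04 and -0.10), on day 5 -3.12 (-3.7, the floor of the rule, and -1.69) and on day 10 -0.61 (-1.51 and 0.57). Over all 20408 identifiers the medians at the same times were -1.02, -1.13, -1.12 and -1.06. By mean level over the other 3 times the members had a median percentile of 56.7, 8 were among the brightest 1000 identifiers (2 inside and 6 outside) and 1, outside, among the brightest 100. The 133 members outside had medians of 0.28 pre-molt, -1.24 on day 1.5, -2.88 on day 5 and -0.58 on day 10, and the 150 inside had -0.24, -1.36, -3.20 and -0.69. Members in both positions had the same order of medians over the 4 times, which does not tell the positions apart. The rule places day 5 lowest in both. The order of the other times, from pre-molt over day 10 down to day 1.5, was also that of all identifiers.

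**Figure D2:**
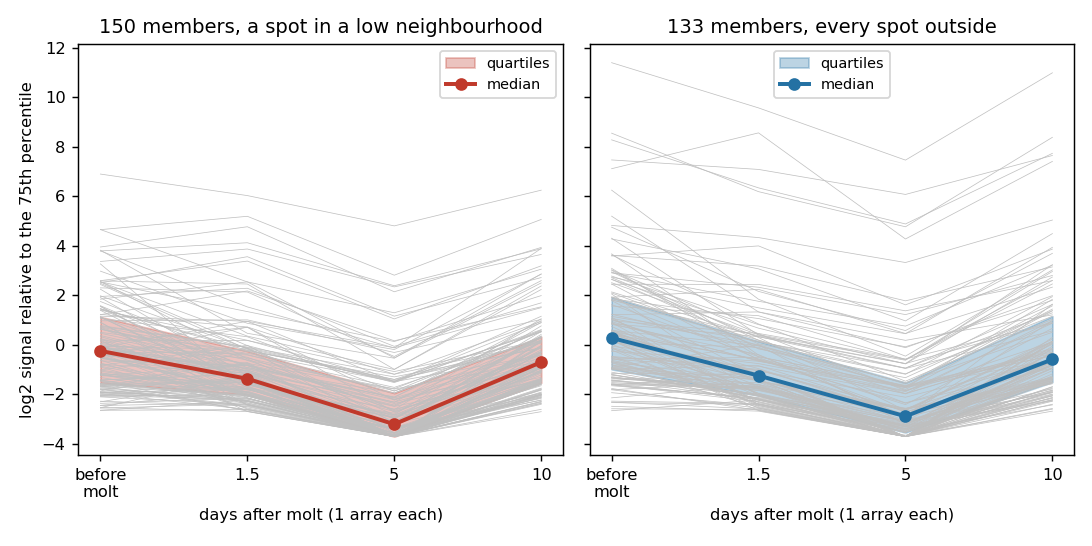
Level of each member (grey lines; y axis, log2 with the array's 75th percentile at 0) at the 4 times (x axis), with the median (points) and quartiles (band). The left panel holds the 150 members with a spot in a low neighbourhood of the day 5 array and the right panel the 133 with every spot outside. In both the median is highest pre-molt and lowest on day 5, the latter by the rule.

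Detection on day 5 sets how far many of the troughs can be read. On at least 1 probe all 283 members were well above background at the other 3 times, and 184 of them on day 5. The remaining 99 (35.0%, where 16.3% of all identifiers were not well above background on day 5) have only a bound there. The rule chose low levels on day 5, which favours a higher share among members. Detection was also poorest on that array, with 17085 of all 20408 identifiers well above background, against 18896 pre-molt, 18502 on day 1.5 and 18020 on day 10. Of the 184, another 15 (9 of them with a spot inside) had 2 or more probes of which at least 1 was not well above background on day 5, so that part of their averaged level is a bound too, and 169 were detected there on every probe in use. Inside, 62 of 150 were dim on day 5, and outside 37 of 133. For 79 members the level on day 5 was set to the floor of -3.7 that the rule uses, so that their depth is fixed by the other times. The lowest level well above background on that array was -3.65, above the lowest of -4.06 pre-molt, -4.14 on day 1.5 and -4.01 on day 10. Some members above -3.65 were still not well above background on day 5, such as ENSGALT00000040296 at -3.14. The value of -3.65 is thus the lowest level detected and not a limit above which all signals were. Read against -3.65, or against their own level where that was higher, the depth of 7 of the 99 was under 1. The smallest was 0.95. A stricter limit would put more of them under 1, and their number was not counted. The error that the scanner program gives for a processed signal, on the log2 scale, had a median of 0.26 over member spots on day 5 and an upper quartile of 0.41. At the other times the median was 0.15.

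**Figure D3:**
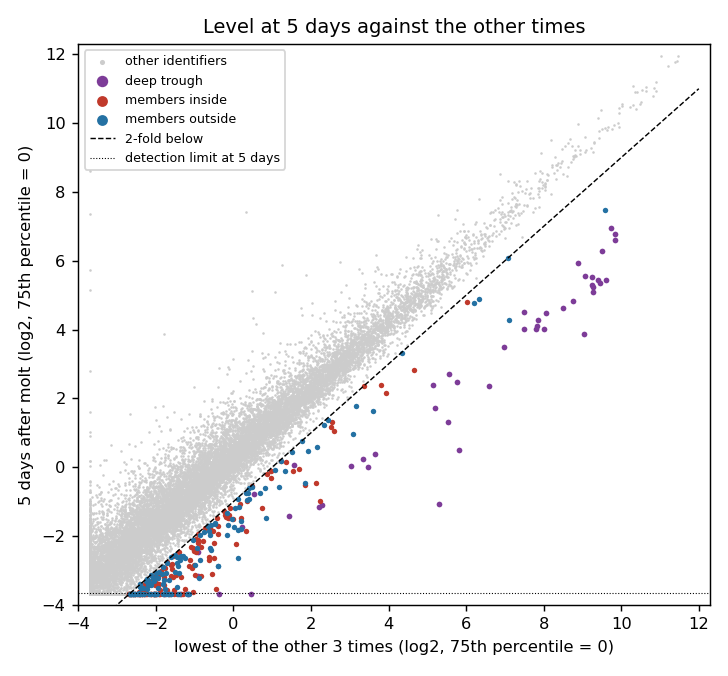
Level on day 5 (y axis) against the lowest level of the other 3 times (x axis) for 20408 identifiers, both log2. Members lie on or below the dashed line of 2-fold. The dotted line at the bottom, labelled detection limit, is the lowest level well above background on day 5. Members along it have a depth that is a bound, as do some above it. The deep-trough identifiers (purple) lie further below the dashed line and mostly to the right; members inside are red and those outside blue.

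In the 2 brightest members day 1.5 was already low and day 10 was close to pre-molt. NP9670462, read by 1 probe and ranked 21 by mean level over the other 3 times, had a level of 11.40 pre-molt, 9.57 on day 1.5, 7.47 on day 5 and 10.99 on day 10. It stood 11.5-fold higher on day 10 than on day 5 and 1.33-fold below its pre-molt level. ENSGALT00000040778, also read by 1 probe, had 8.55 pre-molt, 6.19 on day 1.5, 4.77 on day 5 and 8.39 on day 10, 12.2-fold higher on day 10 than on day 5. Both spots lay outside low neighbourhoods. They were chosen as the 2 members with the highest level among those detected on all arrays, and neither has a gene name in the files.

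The 2 members with the deepest trough differed from each other in course. ENSGALT00000006308 had a level of 2.59 pre-molt, 2.46 on day 1.5, -0.98 on day 5 and 2.24 on day 10, so that the 3 other times lay within 0.35 of each other and day 5 was 11.9-fold below pre-molt. ENSGALT00000020949 had 1.98 pre-molt, -0.14 on day 1.5, -3.55 on day 5 and -0.46 on day 10. It was 46.3-fold lower on day 5 than pre-molt, and it stayed 5.44-fold below pre-molt on day 10. Its fall from pre-molt exceeded the limit for deep identifiers. With a rise to day 10 past that limit it would have been left out, so some shortfall on day 10 follows from the rule. Both were read by 1 probe in use, and both spots lay in low neighbourhoods, with a median deviation of the surrounding spots of -0.89 and -0.34. The depth of the first was 2.06 in place of 3.22 with normexp background correction. It was 2.16, below the 2.83 of the second, after a local median over the nearest detected spots of any brightness was subtracted on each array. That local median is a different measure from the 2 deviations just given. The depth of the second was 0.50 in place of 3.09 when probes dim on every array were averaged in, and 0.60 with normexp. The next deepest member, outside low neighbourhoods and read by 1 probe, had 7.12 pre-molt, 8.56 on day 1.5, 4.28 on day 5 and 7.41 on day 10. Single members thus do not give a course for the bright or the deep members at large.

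Against pre-molt the members stood 5.37-fold lower on day 5 at the median, a log2 ratio of -2.42 with quartiles of -3.46 and -1.78. Against day 1.5 the ratio on day 5 was -1.44 (quartiles -1.91 and -1.18), and from day 5 to day 10 it was 2.10 (1.53 and 2.82). With normexp background correction the ratio of day 5 to day 1.5 turned to 0.086 and those of day 5 to pre-molt and day 10 to day 5 were -0.61 and 0.29, and the rule found 28 of the 283 members again. As run here, normexp adds 50 to each signal, which shrinks the ratios of dim signals. How much of the loss comes from this was not tested. With scaling on the spike-in probes the ratio to day 1.5 was -0.90, and 120 members were found again. Every member passes 2-fold in these 3 comparisons by construction, where 12.5%, 2.87% and 8.55% of all identifiers do so in the same direction. Outside low neighbourhoods the medians were -2.64 for day 5 against pre-molt, -1.36 for day 5 against day 1.5 and 2.10 for day 10 against day 5, and inside they were -2.27, -1.55 and 2.11.

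By day 1.5, a total of 133 members (47.0%) were already 2-fold or more below pre-molt, where 12.2% of all identifiers were, and 6 (2.12%) were 2-fold or more above it, where 7.66% were. The median log2 ratio was -0.87. With scaling on the spike-in probes 226 members were lower, with a median of -1.79. Members had to be above their level on day 5 at this time, and not above or below their pre-molt level, but the values come from the arrays that chose them and share the pre-molt array with the fall on day 5. Outside low neighbourhoods 74 of 133 were lower and 1 was higher, with a median of -1.17. Inside, 59 of 150 were lower and 5 were higher, with a median of -0.82. The part of the fall from pre-molt to day 5 that had been reached by day 1.5 had a median of 43.9% outside and 33.7% inside. For the 37 members outside and 62 inside that were dim on day 5, the fall is a bound, so this part is not measured.

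On day 10 the level lay within 2-fold of pre-molt in 207 of 283 members, where 88.5% of all identifiers did, and 65 members (23.0%, where 7.31% of all identifiers were) lay 2-fold or more below it. It was 2-fold or more above in 11 (3.89%, where 4.15% were) and at or above pre-molt in 90, where 50.2% were. Members were thus more often below pre-molt on day 10 than identifiers at large, but the rule used both levels. It left out the deep identifiers, which were far above day 5 at both times. A member that far above day 5 pre-molt therefore had to lie below pre-molt on day 10. How many of the 65 are of this kind was not counted. Of the 49 deep identifiers, 9 (18.4%) were 2-fold or more below pre-molt on day 10. The return given next is limited by the rule in the same way. On the log2 scale the median return by day 10 was 88.2% of the fall, 91.1% inside and 81.3% outside. The fall is a bound for the 99 members dim on day 5 (62 inside and 37 outside), so their return is not measured. Outside low neighbourhoods 41 of 133 were 2-fold or more lower on day 10 than pre-molt and the median log2 ratio was -0.41, and inside 24 of 150 were lower and the median was -0.20. Within 2-fold were 86 outside and 121 inside. The SD of this ratio between probes of 1 identifier was 0.54 over all identifiers with 2 or more probes. That is a spread between different probes and not between birds or arrays, which 1 array per time does not give. A single member, within 2-fold or beyond it, thus cannot be placed above or below pre-molt with a known error.

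**Figure D4:**
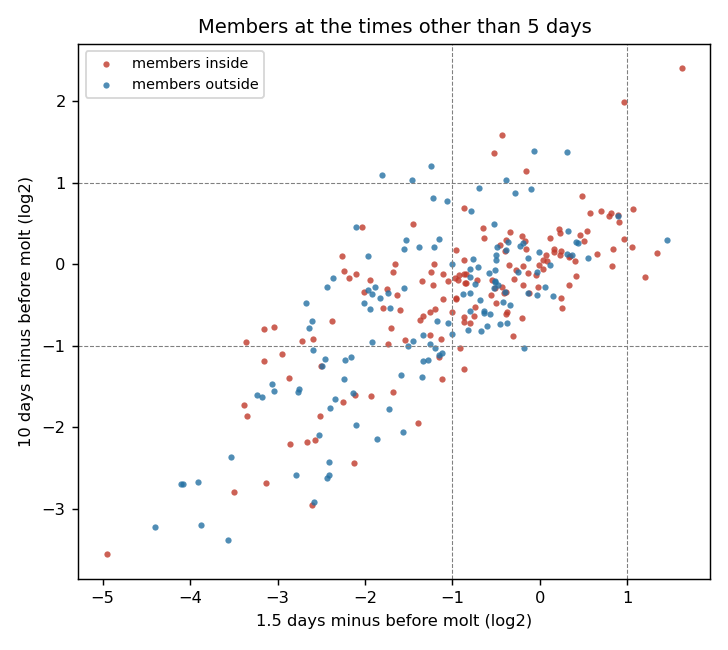
Log2 ratio of day 10 to pre-molt (y axis) against that of day 1.5 to pre-molt (x axis) for the 283 members, with members inside low neighbourhoods of the day 5 array in red and those outside in blue. Dashed lines mark 2-fold. Both axes share the pre-molt array; members spread along the left, where 133 are 2-fold or more lower on day 1.5, and 207 lie between the horizontal lines.

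Most members followed one of 3 courses. In 126 members (44.5%, against 71.7% of all identifiers) the 3 other times lay within 2-fold of each other, so that day 5 alone stood apart. In 73 (25.8%, against 5.90% of all) the level was 2-fold or more lower on day 1.5 than pre-molt and 2-fold or more higher again on day 10 than on day 1.5. Another 60 were lower on day 1.5 and not 2-fold higher on day 10 than on day 1.5, as were 6.26% of all identifiers. The first of these made up 77 of 150 members inside low neighbourhoods and 49 of 133 outside, the second 30 inside and 43 outside, and the third 29 inside and 31 outside. The lowest of the other 3 levels was that of day 1.5 in 200 members, of day 10 in 43 and of pre-molt in 40. Over all identifiers the shares were 34.4% for day 1.5, 27.5% for day 10 and 38.1% for pre-molt, with ties at the floor counted as pre-molt. For those with pre-molt as the lowest, 31 lay inside and 9 outside. Set against day 1.5, a total of 88 members (31.1%, against 8.60% of all) were 2-fold or more higher on day 10 and 3 (1.06%, against 6.58%) were lower. Of the 88, 37 lay inside and 51 outside. The shares of all identifiers given here are not matched to the members in level. The lowest member level at the other times was -2.69, whereas the lower quartile of all identifiers was -2.70 pre-molt, -2.88 on day 1.5 and -2.82 on day 10. Identifiers at or near the floor of -3.7 can only look flat or nearly so.

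The courses are given here by brightness. Of the 117 members with a mean level below -1 over the other 3 times (68 inside and 49 outside), 72 were not well above background on day 5, and for the 117 the median log2 ratio on day 1.5 against pre-molt was -0.51. The 70 members between -1 and 0 (36 inside and 34 outside) had a median of -1.40 on day 1.5 against pre-molt. In that band 43 were 2-fold or more lower on day 1.5 and 24 were dim on day 5. The 77 members between 0 and 3 (38 inside and 39 outside) had a median of -1.60 on day 1.5. Here 51 were 2-fold or more lower and 3 were dim on day 5. Shares of all identifiers in the same bands were not counted, and the 12.2% given above for day 1.5 covers all levels. All 19 members from 3 upward were well above background at every time. Of these, 11 lay outside, with a median of -3.31 on day 5, -1.21 on day 1.5 and -0.17 on day 10 against pre-molt, and 8 lay inside, with -1.82, 0.42 and 0.09.

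Set beside the 49 deep identifiers that the rule left out, the members were dimmer and shallower. The deep identifiers had median levels of 10.08 pre-molt, 6.59 on day 1.5, 2.71 on day 5 and 9.64 on day 10. All 49 were 2-fold or more lower on day 1.5 than pre-molt, with a median log2 ratio of -2.61, and 47 were 2-fold or more higher on day 10 than on day 1.5. The rule fixes the difference in depth and uses the same 4 arrays, so the other values are a description too. The mirror image was rarer than the trough, with 130 identifiers (0.637%) highest on day 5 by 2-fold or more and 332 (1.63%) lowest, the deep ones included. Lowest by the same margin were 337 identifiers pre-molt (1.65%), 184 on day 1.5 (0.902%) and 293 on day 10 (1.44%). Among the 332 lowest on day 5 were 150 members with a spot in a low neighbourhood of that array. The counts of those highest on day 5 and of those lowest at the other times were not split by position.

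Most members rest on a single probe. One probe was in use for 256 of them, 2 probes for 22 and 3 for 5. Over all 20408 identifiers 4603 had 2 or more probes in use, so a single probe was common at large too. Of the 27 with 2 or more, 4 had every probe at least 1.0 lower on day 5 than at each other time, where 7 of all 4603 identifiers with 2 or more probes did (0.152%), and 13 had every probe lowest on day 5, where 4.08% did. The average of these probes chose the members, so the counts are a description. For depths and counts by probe, levels under -3.7 were set to -3.7 on each probe, and a tie at the floor was not counted as lowest. Of the 59 probes of these 27 members, 26 were at least 1.0 lower and 43 were lowest on day 5, and the depths ran from -1.13 to 3.54. In 7 of the 27 no probe reached 1.0. Each of these 7 had a probe that was not well above background on day 5 and lay below the floor of -3.7 before averaging. For the depth of an identifier the floor is applied to the average of its probes. Signal below the floor on a probe thus enters the depth of these 7 identifiers, but not the depths by probe. The brightest of the 4 had levels of 8.28 pre-molt, 6.34 on day 1.5, 4.89 on day 5 and 7.74 on day 10, with depths of 1.27 and 1.64 on its 2 probes, both outside. The other three that held on every probe were at 1.73 and 1.74 (outside), at 1.18 to 1.47 over 3 probes and at 1.07 and 1.22 (each with a spot inside). In the 12 members with a probe on each kind of ground, the 14 probes inside had a median depth of 1.20 and the 15 outside 0.27, and 8 of those inside and 4 of those outside were at least 1.0 lower.

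**Figure D5:**
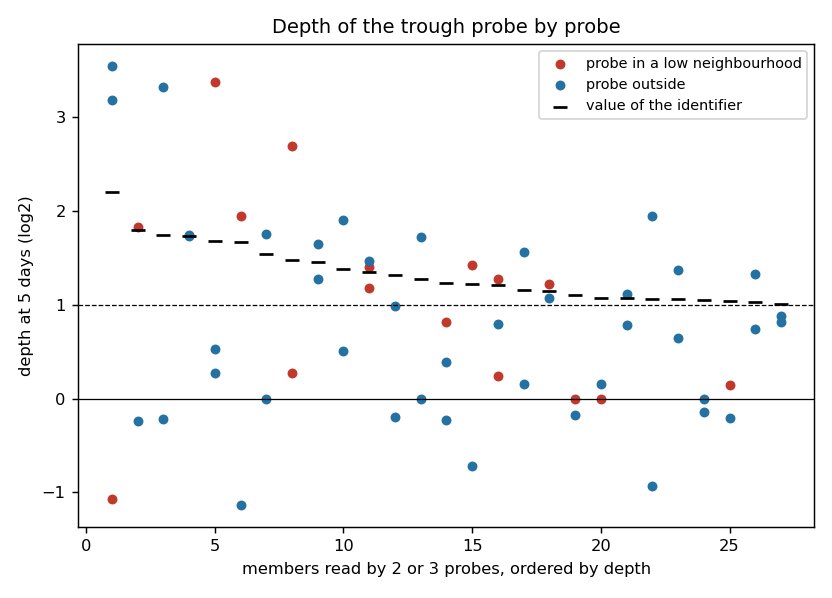
Depth of the trough on day 5 on each probe (y axis, log2; points) for the 27 members read by 2 or 3 probes, ordered by the depth of the identifier (black bars). The dashed line is the limit of 1.0, and 26 of 59 probes lie on or above it. Levels under -3.7 were set to -3.7 on each probe, so a point at 0 is a tie at that floor. Points below 0 are probes that were not lowest on day 5. Red points are probes in low neighbourhoods and blue points probes outside.

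Choosing on 1 probe and reading another separates the choice from the reading by probe only, since both come from the same 4 arrays. The rule applied to the first probe (by probe name) of the 4603 identifiers with 2 or more probes found 46, with a median depth of 1.34 on that probe. On their remaining probes the median depth was -0.29 (quartiles -0.71 and 0.11), beside -0.33 over all 4603. At least 1.0 lower on the remaining probes were 6 of the 46, where 0.782% of all were, and lowest on day 5 were 15, where 15.8% were. The shares of all include the 46. The first probe lay inside a low neighbourhood for 20 of the 46 and outside for 26. It found 3.28% of the 609 identifiers whose first probe lay inside and 0.651% of the 3994 with it outside, and the remaining probes were at least 1.0 lower for 2 of 20 and 4 of 26. For comparison, 25 probes spotted 5 times and detected throughout had an SD between repeated spots of 0.12 to 0.16 for ratios of day 5 to another time. The SD between different probes of 1 identifier was 0.71 for day 5 against pre-molt, 0.38 for day 5 against day 1.5 and 0.57 for day 10 against day 5.

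By kind of identifier, RefSeq NM accessions were fewer among the members than among all detected identifiers, at 26 of 283 (9.19%) against 18.4%. RefSeq XM accessions made up 9.89% of the members and 6.0% of all, BX accessions 8.48% and 4.96%, and NP numbers 6.36% and 3.78%. Chicken Ensembl transcripts (39.6% and 42.6%) and CR accessions (19.4% and 18.2%) were about as common among members as among all. Outside low neighbourhoods 7.52% of members were RefSeq NM and 12% RefSeq XM. The kinds were not compared at an equal number of probes in use. That number differed, with 2 or more probes for 27 of the 283 members and for 4603 of all 20408 identifiers. Several identifiers can stand for 1 gene, so the number of separate genes among the members is uncertain.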

How the data were processed

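Each array's spots were read with Agilent Feature Extraction 10.7 per the submitters' processing notes, release 10.7.3.1 per the file headers. The deposited intensities are background-subtracted processed signals that are not scaled between arrays. The authors' deposited table holds log2 values with equal medians, and the processing behind it was not given in the sources used here. The design is annotated on the chicken build galGal3, per the file headers. Processed signals of 43803 non-control spots were put on the log2 scale, minus the 75th percentile of each array. Spots of one probe were averaged, then all detected probes (flagged well above background on any array) of one identifier, and levels under -3.7 were set to -3.7. Between 52.4% (day 5) and 57.5% (pre-molt) of spots per array were detected and 0 were saturated. The number of arrays, 1 per time, limits the precision of every value, no p-value is given, and each log2 ratio compares a probe with itself. Detection came from the deposited flags of the scanner program. The members and lists were chosen with earlier results of these data known. The 32 gene lists could not be matched, since 0 identifiers are paired with a symbol. The 4 identifiers named are the 2 deepest and the 2 brightest members detected on all arrays. The split by position on the array was added after the data were seen. The rule and the neighbourhood medians were tested on simulated data. There, troughs were planted only in identifiers with 1 probe and levels above the 75th percentile at the other times. The simulated low corner had the same shift at every spot and was read on all detected spots. Troughs in dim identifiers were not simulated. Software was Python 3.11.15, numpy 2.4.6, pandas 2.3.3, scipy 1.17.1 and, for normexp, limma 3.58.1 under R 4.3.3. The files hold no mean signal, so normexp used the median signal.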

Additional observations from a re-analysis of the deposited data

How the results depend on the processing

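No paired analysis was possible because each time has 1 array, and no replicate could be left out. Of 16 values tracked, all 16 stayed close to those reported when arrays were centred on the median or quantile-normalized, with the authors' log2 table, with the brightest probe and without outlier flags. The rule found 594 members with no floor, 178 with detection on all 4 arrays, 130 after spike-in scaling, 68 after normexp, 107 at a depth of 1.5 and 441 at 0.8, and, among alternatives chosen after the data were seen, 138 on spots outside low neighbourhoods. Of the 283 members, 172, 120, 28 and 136 were found again with detection on all arrays, spike-in scaling, normexp and spots outside low neighbourhoods. A local median was also subtracted from each spot, taken over its 30 nearest detected spots of any brightness, members included. These spots were read against the median of all 4 arrays, unlike the deviation that defines low neighbourhoods. The rule then found 265 identifiers, 121 of them with a spot in a low neighbourhood, and 237 of the 283. Lower at 1.5 days than before molt were 226 members after spike-in scaling, 88 with detection on all arrays and 77 on spots outside. At 10 days 3 were higher and 102 lower than before molt after spike-in scaling, 1 and 41 after normexp, 6 and 43 with detection on all arrays (184 members) and 7 and 42 on spots outside (145 members). Dim at 5 days were 0 with detection on all arrays, by construction, and 38 on spots outside. After spike-in scaling the median ratio was -0.90 on day 5 to day 1.5 and -1.79 on day 1.5 to pre-molt. Normexp gave a median ratio of -0.61 on day 5 to pre-molt, 0.29 on day 10 to day 5, and 0.086 on day 5 to day 1.5, a turned direction. It corrects the median signals for local background and adds 50 to them. The processed signals behind the main values are other values, with a 75th percentile of 105 on day 5 and 134 on day 1.5. Why the direction turned was not tested. With limits of -0.2 and -0.4, low neighbourhoods held 176 and 118 member spots (55.9% and 37.5%) against 19.6% and 8.56% of detected spots. The depth of the 4 named identifiers ran from 2.06 to 3.28, 0.50 to 3.09, 1.76 to 2.72 and 1.07 to 1.92 over the alternatives, in the order ENSGALT00000006308, ENSGALT00000020949, NP9670462 and ENSGALT00000040778.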
